A study of Mus musculus with 9 samples.

Results

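Cytokine signals reach the T cell nucleus through Janus kinases (JAKs), which are bound to cytokine receptors and phosphorylate signal transducers and activators of transcription (STATs). Phosphorylated STATs pair up and bind DNA, and among the genes they induce are suppressors of cytokine signaling (SOCS), which feed back on receptors and kinases. Jak1 and Jak3 serve the receptors that share the common gamma chain, among them those of interleukin-7 (IL-7) and IL-15, on which naive CD8+ T cells depend for survival. The genes described here are the STAT genes Stat3, Stat4, Stat5a and Stat5b, the kinase genes Jak1 and Jak3, and the suppressor genes Socs1, Socs2 and Socs3. These 9 genes were taken by name from 22367 protein-coding genes annotated on mm9, and for each one the islands of H3K27ac, an acetylation mark of active promoters and enhancers, were counted from the end of the gene body to 50 kb upstream of the transcription start site (TSS).

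The cells were naive CD8+ T cells sorted from spleens as GFP+ TCRbeta+ CD8+ CD62Lhi CD44lo-med cells. WT cells came from C57BL/6 mice that were hCD2-Cre+ Rosa26GFP with intact Tcf7 and Lef1 (4 H3K27ac samples, 1 input), and dKO cells from hCD2-Cre+ Rosa26GFP Tcf7fl/fl Lef1fl/fl mice, in which both genes for the factors Tcf1 and Lef1 are excised (3 H3K27ac samples, 1 input). Mice of both sexes, 6 to 12 weeks old, were used. Cre under the hCD2 promoter acts mostly in mature T cells, GFP marks cells in which Cre has acted, and WT cells carried Cre and GFP as well. Replicates were pooled before islands were called, so each genotype has 1 list and 1 value per gene. The spread between replicates is therefore unknown for every ratio given, and no p-value can be given. Intervals are 95% exact (Clopper-Pearson) binomial intervals that cover counting error only. In pooled cells, fewer cells carrying the mark and less of the mark per cell cannot be told apart.

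The WT list held 82668007 counts in 65563 islands (210.5 counts per kb) and the dKO list 57665047 counts in 82213 islands (134.3 counts per kb). Counts were therefore divided by each list's total and are given as CPM (the share of the list's counts, scaled as is usual for this unit) where depths of both lists are set side by side. Islands in 1 list alone made up 14.9% of the WT list and 26.2% of the dKO list. Islands covered the TSS in both lists for 6 of 6 CD8 T cell marker genes and 3 of 3 CD4 T cell markers. They also covered 3 of 4 B cell markers in both lists, 1 of 2 NK cell markers in both lists, and 3 of 4 myeloid markers in WT and 4 of 4 in dKO, with Pax5 and Ncr1 lacking an island over the TSS. Summed CPM was 1739 in WT and 1702 in dKO over the CD8 T cell markers, 370 and 473 over the CD4 T cell markers, 455 and 546 over the B cell markers, 151 and 181 over the NK cell markers, and 523 and 484 over the myeloid markers. By counts per kb none was called, and log2 ratios ran from −0.26 (Cd8b1) to 0.41 (Cd3e), from −0.43 (Foxp3) to −0.07 (Cd4), and from −0.15 (S100a8) to 0.09 (Lyz2) over the CD8 T cell, CD4 T cell and myeloid markers, respectively, with −0.48 for Pax5, the lowest B cell marker, and 0.04 for Klrb1c, the NK cell marker with islands. The part of other cells in the results was not tested. Islands remained over the targeted genes, at a log2 ratio of dKO to WT counts of 0.17 for Tcf7 and −0.30 for Lef1, which does not check the labels because the mark can stay on a locus whose exons are deleted. On chromosome X, which holds none of the 9 genes, the median log2 ratio of counts was −0.62. Chromosome Y held 1 island in the WT list and 17 in the dKO list. The part of sex in the ratios was not tested. With 1 pooled list per genotype, a difference in the sexes pooled and one of genotype cannot be told apart.

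Most STAT genes and Jak1 had lower, and the SOCS genes and Jak3 higher, whole-island counts in dKO. Counts of whole islands in the window were higher in dKO by at least 1.5 times for Jak3 and the 3 SOCS genes, higher by less than that for Stat3, and lower by less than that for Stat4, Stat5a, Stat5b and Jak1. Thus 4 of 9 genes were called higher and 0 called lower, against a background of 11.5% of 16487 genes with islands in both lists called higher and 11.5% called lower. The median log2 ratio was 0.20 over the 9 genes and −0.03 over all genes. Covered width was greater in dKO for 7 of 9 genes (65.1% of all genes), with a median log2 ratio of 0.47 (all genes 0.17). By counts per covered kb, 8 of 9 genes were below 0 (7 of 9 with lists scaled to regions that have islands in both, where Socs3 turned to 0.06). Most of all genes were below 0 as well, since a log2 ratio of 0.004 (Itgam) was at the 79.9th percentile. The median log2 ratio by counts per kb was −0.26 over the 9 genes (all genes −0.16). Of the 9, 0 passed 1.5 either way, against backgrounds of 0.425% higher and 9.28% lower.

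The count ratio of a window depends on how islands are joined at its edges, and 2 other ways of counting were compared. Clipping each island to the window, with counts in proportion to the clipped width, left Jak3 and Socs2 called higher and 0 genes called lower (backgrounds 8.27% and 9.71%). Joining overlapping islands of both lists into merged regions, and summing each list over the regions that touch the window, also left Jak3 and Socs2 called higher and 0 called lower (backgrounds 7.00% and 9.21%). Socs1 and Socs3 were not called by either. Signs were kept for Stat3, Stat4, Stat5a, Stat5b, Jak1, Jak3, Socs2 and Socs3 in all 3 ways of counting, and the sign of Socs1 turned.

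**Figure D1:**
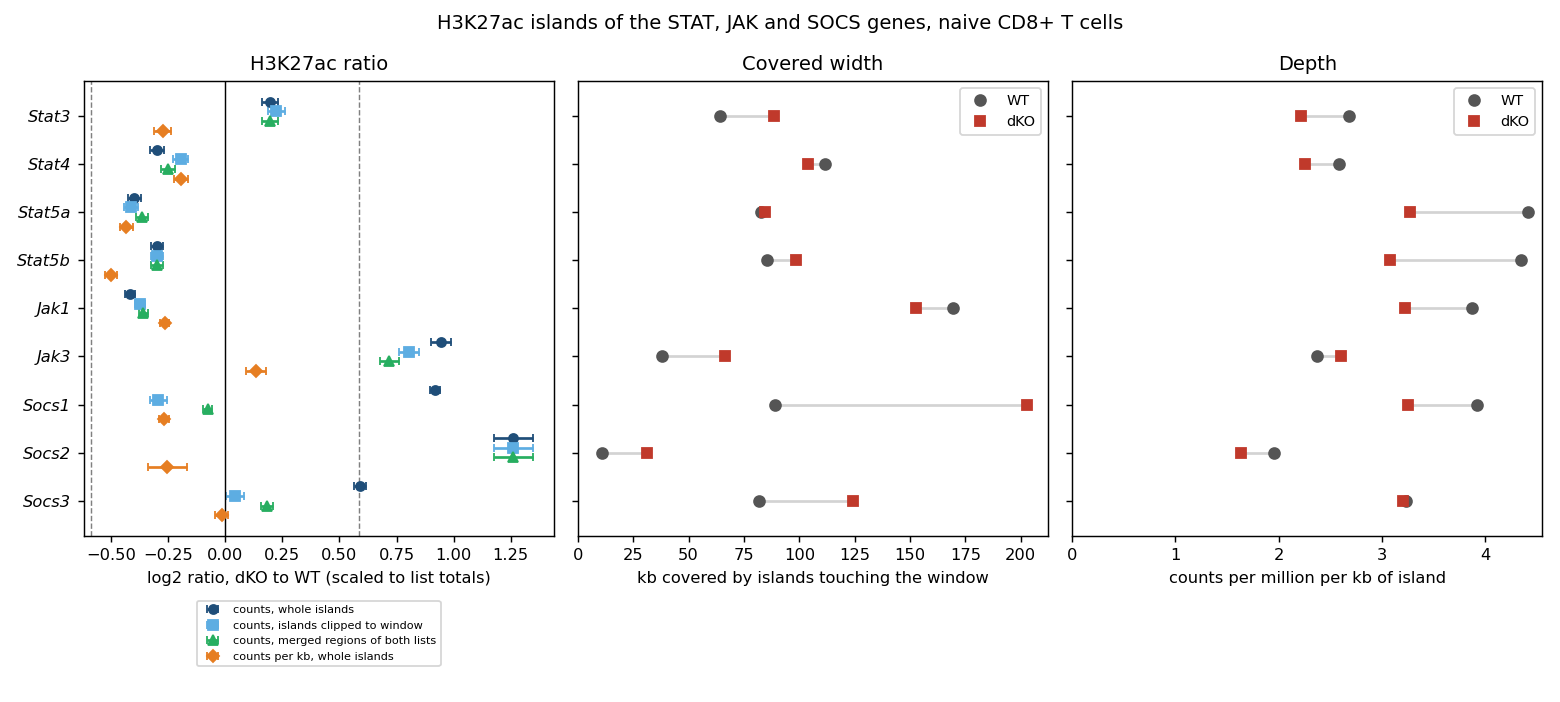
Log2 ratios of dKO to WT H3K27ac (left, with 95% counting intervals and dashed lines at a ratio of 1.5), kb covered by islands (middle) and depth in CPM per kb (right) for the 9 genes. Whole-island counts pass the right dashed line for Jak3, Socs1, Socs2 and Socs3, while counts in merged regions pass it for Jak3 and Socs2, and all 9 ratios of counts per kb lie between −0.50 and 0.14.

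Stat5b and Stat5a, the genes of the STAT5 proteins that carry IL-2, IL-7 and IL-15 signals, lie head to head on chromosome 11 with TSSs 8.627 kb apart, ENSMUSG00000020919.5, chr11:100642045-100712038, minus strand and ENSMUSG00000004043.8, chr11:100720665-100746483, plus strand. A single island spanned both TSSs in each list. In WT it ran over chr11:100702001-100727400 with 14619 counts in 25.4 kb, or 576 counts per kb, and in dKO over chr11:100702201-100727800 with 6438 counts in 25.6 kb, or 251 counts per kb. Borders differed by at most 400 bases, so width hardly entered this comparison. The depth was 6.96 CPM per kb in WT and 4.36 CPM per kb in dKO, a ratio of 0.626 (log2 ratio of counts per kb −0.67, interval −0.72 to −0.63). The sequence just upstream of the annotated Stat5b exon is shown because it lies under this island and is rich in CpG. Over the 250 bases before the RefSeq start nearest the annotated TSS there were 40 CpG dinucleotides, at the 98.9th percentile of 32851 RefSeq promoters, whose median was 6.

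Stat5b upstream stretch, chr11:100712039-100712145 (mm9, minus strand): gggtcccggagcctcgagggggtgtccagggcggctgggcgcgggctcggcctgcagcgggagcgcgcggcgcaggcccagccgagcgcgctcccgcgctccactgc

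Neither of the motifs searched in the promoters was found in the 250 bases before the starts of Stat5b or Stat5a. These were TTCNNNGAA, the palindromic core bound by STATs, and ATCAAAG on either strand, a core bound by TCF and LEF factors. They occurred in 7.02% and 3.21% of RefSeq promoters, respectively.

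The Stat5 island was set beside other island pairs with near-equal borders, 1 from each list with starts and ends at most 400 bases apart. Among 10431 such pairs, 3.72% were lower in dKO by 1.5 times or more in counts per kb and 0.642% were higher. The Stat5 pair was at the 2.14th percentile of these. Among 10836 pairs of islands over a TSS, 1 from each list, it was at the 13.3rd percentile. Depth in WT moved with the ratios of pairs with near-equal borders. It is also the divisor of each ratio, so depth and ratio are not independent. Pairs under 200 WT counts per kb had a median log2 ratio of 0.04 (n = 7232), and pairs of at least 400 WT counts per kb a median of −0.42 (n = 1231), of which 131 were at or below the value of the Stat5 pair. The part of depth in the Stat5 value was not tested. Of 672 pairs at least 10 kb wide in WT, 3 were at or below it. The windows of the 9 genes held 13 such pairs, of which this 1 was called lower and 0 called higher, and their median was 0.03 (all pairs −0.03). A neighboring pair 10.136 kb into Stat5a had the highest of the 13 log2 ratios, at 0.34 (interval 0.15 to 0.53), with unscaled depths of 147 (WT) and 130 (dKO) counts per kb.

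**Figure D2:**
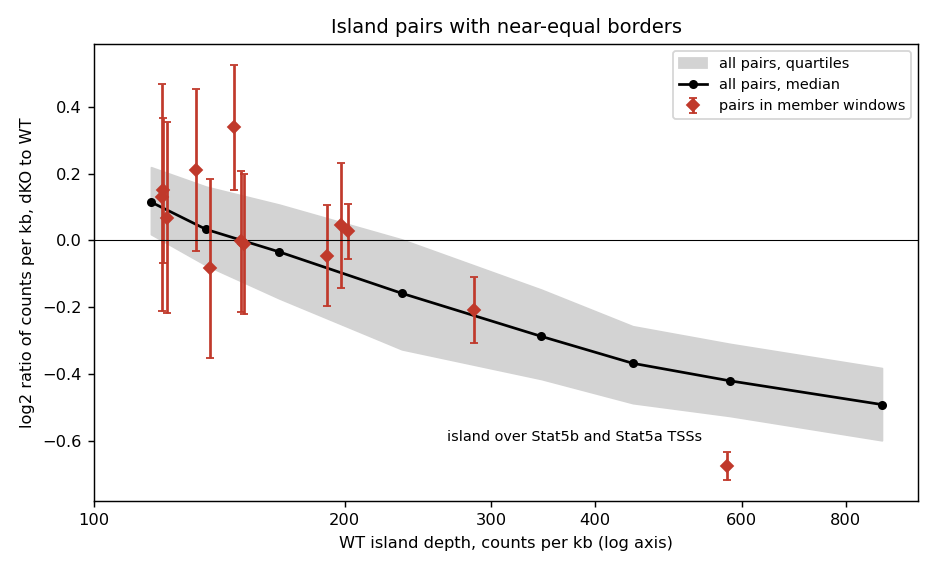
Log2 ratio of counts per kb, dKO to WT, against the WT depth of the island on a log axis, for island pairs with near-equal borders. The WT depth is also the divisor of the ratio. The black line and grey band are the median and quartiles of all 10431 pairs by depth, which fall with depth, and red diamonds with 95% counting intervals are the 13 pairs near the 9 genes, with the Stat5 pair below the band at −0.67.

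The rest of the Stat5 locus differed less. A WT island of 32.2 kb in the Stat5b body with 11515 counts met 2 dKO islands that together held 7013 counts in 36.6 kb, a log2 ratio of −0.20 over the merged region. Toward the 3' end of Stat5b, 2 islands of 105 and 618 counts were found in dKO alone, and 1 of 151 counts in the Stat5a body. Their depths of 83.9 to 96.6 counts per kb were below the dKO median of 98.3 counts per kb. Over the whole windows, Stat5b went from 30729 counts in 85.6 kb to 17441 counts in 98.4 kb (log2 ratio of counts −0.30, interval −0.32 to −0.27) and Stat5a from 30131 counts in 82.6 kb to 15953 counts in 84.6 kb (log2 ratio −0.40, interval −0.43 to −0.37). By counts per kb Stat5b was at −0.50 and Stat5a at −0.43, the 12.9th and 17.0th percentiles of all genes. With each island given to the nearest TSS, Stat5a was at 0.005 and Stat5b at −0.43. The windows of Stat5b and Stat5a overlap and share most islands. That of Stat3 shares a WT island of 3011 counts with both, so the values of these genes are not independent.

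Stat3, which carries signals of IL-6, IL-10 and IL-21, lies next to Stat5a and runs in the opposite direction (ENSMUSG00000004040.10, chr11:100746412-100800854, minus strand). The WT island over its TSS held 6022 counts in 13.4 kb (449 counts per kb), and the dKO island started at the same upstream border but reached 28.8 kb with 4839 counts (168 counts per kb). Counts per kb of this pair gave a log2 ratio of −0.90, although over the merged region, in which WT had a second island, the log2 ratio of counts was 0.04 (6746 WT and 4839 dKO counts). Depth per kb and counts over the same stretch thus gave different values. Upstream, a region from −11.146 to −6.947 kb relative to the TSS held 155 counts in 1.0 kb in WT and 455 counts in 4.2 kb in dKO, a log2 ratio of 2.07. The depths were 1.87 and 1.88 CPM per kb, so that this ratio was one of called width. Over the window Stat3 went from 14161 counts in 64.0 kb to 11315 counts in 88.6 kb, a log2 ratio of 0.20 (interval 0.16 to 0.23). Ptrf, a caveolae gene, has its TSS in this window.

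Of all 22367 protein-coding genes, 12684 (56.7%) had an island over the 5'-most TSS in both lists, and 611 had one in WT alone. Of the 9 genes, 8 had one in both lists, in 7 distinct pairs since the Stat5 genes share 1. Counts per kb of these pairs were lower by 1.5 times or more for 2 (Stat3 and Stat5) and higher for 0, against backgrounds of 17.8% and 2.85% of 10836 pairs. Stat4 was the exception. Stat4 (ENSMUSG00000062939.5, chr1:52043992-52164032, plus strand) carries IL-12 signals and is needed for type 1 responses. The island over its 5'-most TSS was weak in WT, with 495 counts in 4.0 kb (124 counts per kb, at the 26.5th percentile of WT islands), and the dKO list had none there. The main Stat4 island lay instead around a second RefSeq start 21.092 kb downstream. It held 5482 counts in 9.6 kb in WT (571 counts per kb) and 3256 counts in 14.4 kb in dKO (226 counts per kb), with a log2 ratio of −0.30 over the merged region. Both upstream stretches are printed so that the weakly and the strongly marked start can be compared.

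Stat4 5'-most start, chr1:52043742-52043991 (mm9, plus strand): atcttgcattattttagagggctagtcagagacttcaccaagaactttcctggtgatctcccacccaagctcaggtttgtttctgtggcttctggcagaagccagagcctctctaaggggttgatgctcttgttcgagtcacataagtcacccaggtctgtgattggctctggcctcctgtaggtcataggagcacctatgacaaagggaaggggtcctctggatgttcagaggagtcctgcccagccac

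Stat4 downstream start, chr1:52064834-52065083 (mm9, plus strand): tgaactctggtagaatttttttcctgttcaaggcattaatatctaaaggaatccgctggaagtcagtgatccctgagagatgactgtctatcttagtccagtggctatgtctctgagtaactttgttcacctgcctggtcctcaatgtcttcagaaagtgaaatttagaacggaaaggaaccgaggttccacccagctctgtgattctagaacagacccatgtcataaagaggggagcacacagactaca

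These stretches held 1 and 3 CpG dinucleotides, fewer than the median promoter, and neither motif. In contrast to the Stat5b start with 40 CpG dinucleotides, the marked Stat4 start was thus poor in CpG. A second RefSeq start of Stat5b, 28.154 kb away and also under an island in each list, had 5. The Stat4 window held 26 WT and 19 dKO islands, and 3 WT islands of 130 to 495 counts had no dKO counterpart. In total it went from 23869 counts in 111.8 kb to 13529 counts in 104.0 kb (log2 ratio −0.30, interval −0.33 to −0.27), or −0.20 by counts per kb. The predicted genes Gm8420 and Gm3940 also start in this window.

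**Figure D3:**
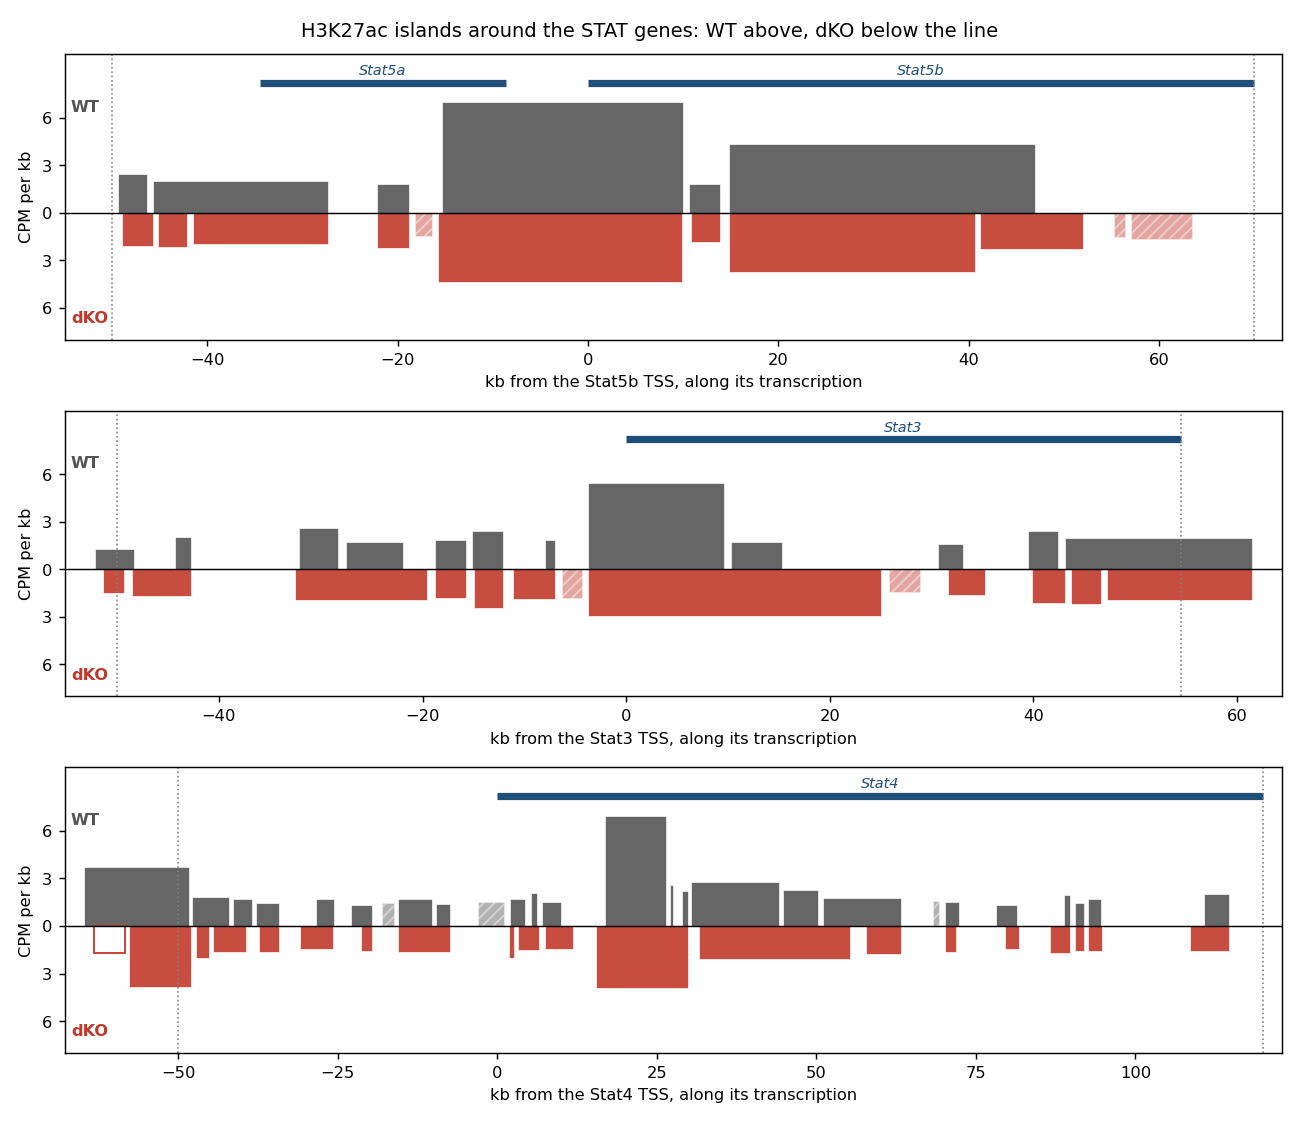
Islands in the windows of Stat5b (with Stat5a), Stat3 and Stat4, by distance from the TSS in kb, with height the depth in CPM per kb, WT above and dKO below the line. Hatched islands are in 1 list alone, open boxes lie outside the window, and dotted lines mark the window. The Stat5 island is at 6.96 CPM per kb in WT and 4.36 in dKO with near-equal borders, while the Stat3 TSS island is 13.4 kb wide in WT and 28.8 kb in dKO.

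The JAK genes differed in direction. Jak1 (ENSMUSG00000028530.8, chr4:100824972-100937887, minus strand), a kinase used by many receptors that act through STATs, had the most counts of the 9 genes in WT and went from 54196 counts in 169.4 kb to 28343 counts in 152.6 kb, a log2 ratio of −0.42 (interval −0.44 to −0.39). The largest part was an island over the 3' part of the gene body, 55.487 to 110.086 kb past the TSS, with 25491 counts in WT (467 counts per kb). In dKO this stretch held 3 islands with 11757 counts, of which the main one had 11206 counts in 47.8 kb (234 counts per kb), for a log2 ratio of −0.60 over the merged region. The TSS island held 9181 counts in 20.8 kb in WT and 4802 counts in 17.4 kb in dKO, and its merged region had a log2 ratio of counts of −0.33 (interval −0.38 to −0.28). By counts per kb the TSS pair was at −0.16 (interval −0.21 to −0.11), the 55.1st percentile of TSS pairs. The whole window was at −0.26 by counts per kb, the 34.3rd percentile of all genes. Between the 3' island and the TSS island, a pair at equal borders lay 22.287 kb into the gene, 14.4 kb wide in both lists. It had a log2 ratio of counts of 0.03 (interval −0.05 to 0.11). The log2 ratios of counts were thus uneven along Jak1.

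Jak3 (ENSMUSG00000031805.10, chr8:74200195-74214474, plus strand), the kinase bound to the common gamma chain itself, was the only one of the 9 genes above 0 by counts per kb, at 0.14 (interval 0.09 to 0.18), the 93.2nd percentile of all genes, although it was −0.02 with a window of 100 kb, and Socs3 was above 0 as well under the other scaling and with that window. Its window held 7439 counts in 38.0 kb in WT and 9987 counts in 66.6 kb in dKO, a log2 ratio of 0.94 (interval 0.90 to 0.99). An island across the 3' end of the gene entered the dKO sum with 1596 counts, while its WT partner of 1261 counts lay beyond the window. Over merged regions, where both are counted, the log2 ratio was 0.72 (interval 0.68 to 0.76), or 1.65-fold, from 8700 WT and 9987 dKO counts. The TSS island had 6039 counts in 30.4 kb in WT and 5568 counts in 31.0 kb in dKO, with a log2 ratio of counts per kb of 0.37 (interval 0.32 to 0.43), the 93.5th percentile of TSS pairs. The 4 merged regions around Jak3 had log2 ratios of counts from 0.21, with an interval of −0.03 to 0.45, to 1.34. By depth they went both ways. The farthest upstream region had 2.52 CPM per kb in WT and 2.10 in dKO, and the island at the 3' end 3.63 in WT and 2.52 in dKO. Unc13a, Gm9933 and Insl3 start in the same window, Gm9933 at a distance of 0.378 kb on the opposite strand, so the signal of Jak3 and that of its neighbors cannot be told apart.

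**Figure D4:**
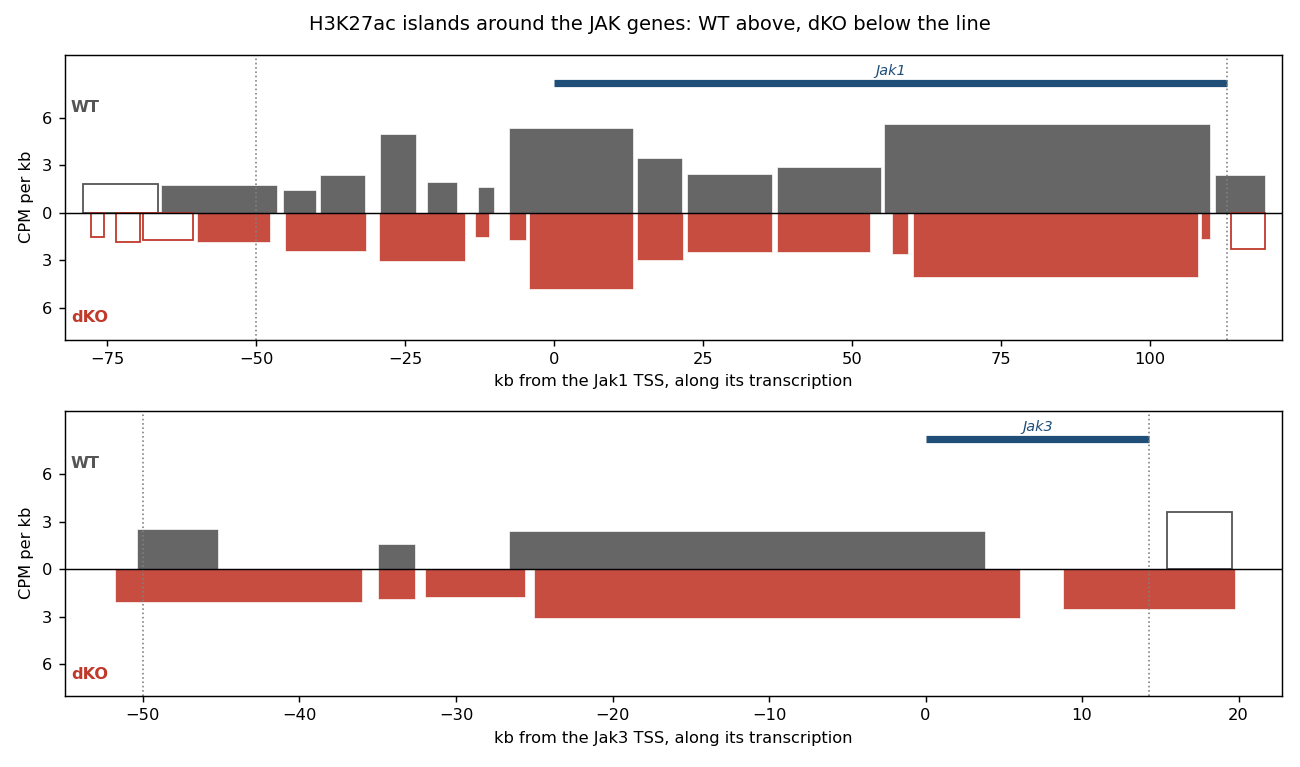
Islands in the windows of Jak1 and Jak3, drawn as kb from the TSS against depth in CPM per kb, WT above and dKO below the line, with open boxes outside the window. The long island over the 3' part of Jak1 is 5.65 CPM per kb in WT and 4.07 in dKO, while the Jak3 TSS island is 2.40 in WT and 3.11 in dKO.

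Among the SOCS genes, higher window counts had different sources. Socs1 (ENSMUSG00000038037.4, chr16:10783901-10785629, minus strand), an inhibitor of JAK activity in interferon and gamma chain cytokine signaling, lay in a single WT island of 89.2 kb with 28865 counts. Its dKO counterparts were 2 islands, 1 over the TSS of 179.2 kb with 33273 counts. The dKO window counts were 38006 in 202.8 kb, for a log2 ratio of 0.92 (interval 0.89 to 0.94). A second WT island of 116.6 kb with 28974 counts began 19.029 kb past the TSS, outside the window, in the stretch that the dKO island joined to Socs1. Over the merged region of 206.4 kb, WT held 57839 and dKO 38266 counts, and the log2 ratio was −0.08 (interval −0.10 to −0.06). Clipped to the window it was −0.29. The window also holds the starts of Tnp2, Prm1, Prm2 and Prm3, the sperm protamine and transition protein genes, and of Gm10343, Gm11172 and A630055G03Rik.

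Socs3 (ENSMUSG00000053113.3, chr11:117827393-117831361, minus strand), which restrains receptors of the IL-6 family, showed the same joining on a smaller scale. The WT island over its TSS was 47.2 kb wide with 13255 counts and the dKO island 83.8 kb with 16249 counts, and the depths were 281 and 194 counts per kb, or 3.40 and 3.36 CPM per kb. The log2 ratio of counts per kb was −0.01 (interval −0.05 to 0.02). The window total went from 21876 to 22958 counts, a log2 ratio of 0.59, and over merged regions from 28989 to 22958 counts, a log2 ratio of 0.18 (interval 0.16 to 0.21). The Socs3 value depended on the window, at 0.04 clipped and 1.85 with 100 kb upstream. The Socs3 promoter is shown because it was the 1 among 11 RefSeq promoter entries of the 9 genes with a TTCNNNGAA match, in capitals, 154 bases before the start. This RefSeq start lies 0.681 kb downstream of the 5'-most Socs3 TSS used here, so the printed stretch lies past that TSS. Entries were found for 8 of the 9 genes, all but Socs2.

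Socs3 promoter, chr11:117830681-117830930 (mm9, minus strand): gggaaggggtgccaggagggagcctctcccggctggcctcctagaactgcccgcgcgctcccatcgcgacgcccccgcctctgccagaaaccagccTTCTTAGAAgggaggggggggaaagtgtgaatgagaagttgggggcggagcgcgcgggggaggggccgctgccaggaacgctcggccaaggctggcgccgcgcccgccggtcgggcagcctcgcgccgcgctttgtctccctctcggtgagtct

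This promoter also held 26 CpG dinucleotides, at the 91.4th percentile. It lay under the TSS island in both lists, so the presence of the mark over it did not differ. Pgs1, a phospholipid synthesis gene, starts in the Socs3 window.

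Socs2 (ENSMUSG00000020027.11, chr10:94847996-94879814, minus strand), best known for limiting growth hormone signaling and induced by STAT5, was the most weakly marked of the 9 genes, with 1773 counts in 11.0 kb in WT and 2961 counts in 31.4 kb in dKO. The log2 ratio of counts was 1.26 (interval 1.17 to 1.35), or 2.39-fold, the 97.2nd percentile of all genes. The island over its TSS did not carry this difference. It held 876 counts in 4.6 kb in WT and 618 counts in 4.8 kb in dKO, a log2 ratio of counts per kb of −0.05 (interval −0.20 to 0.11). Instead, 6 islands 4.987 to 31.386 kb upstream were found in dKO alone and held 1482 counts, or 50.1% of the dKO counts. Each was weak. Their depths were 79.4 to 95 counts per kb, or 1.38 to 1.65 CPM per kb, the 11.0th to 43.8th percentiles of dKO islands, and the 5th percentile of islands was 1.29 CPM per kb in WT and 1.30 in dKO. A WT value for these stretches was not analysed here, because the lists hold counts only where an island was called. The dKO island with the most counts, 646 in 6.6 kb, lay 18.214 to 24.813 kb past the TSS, where WT had 543 counts in 3.4 kb (log2 ratio 0.77, interval 0.60 to 0.94). With only islands that have a counterpart in the other list, the Socs2 log2 ratio of counts was 0.39, over the gene body alone 0.35 and with 100 kb upstream 0.52, all under the 1.5 called.

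The centers of the Socs2 upstream islands were searched because Tcf1 and Lef1 are absent in dKO. ATCAAAG was found in the central 300 bases of 2 of the 6, against 4.74% of all dKO islands, and TTCNNNGAA in 0 of 6, against 8.89%.

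In all 9 windows, 11 of 71 dKO islands and 4 of 66 WT islands had no counterpart in the other list (15.5% and 6.06%, against 26.2% and 14.9% of all islands). None of them exceeded 618 counts. The 2 Socs2 islands were the only ones of the 11 with ATCAAAG in the center, and none of the 11 held TTCNNNGAA. Of the 4 WT islands, 1 in Stat4 held TTCNNNGAA, against 8.95% of all WT islands, and none held ATCAAAG. A match describes letters in this stretch and says nothing of binding.

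**Figure D5:**
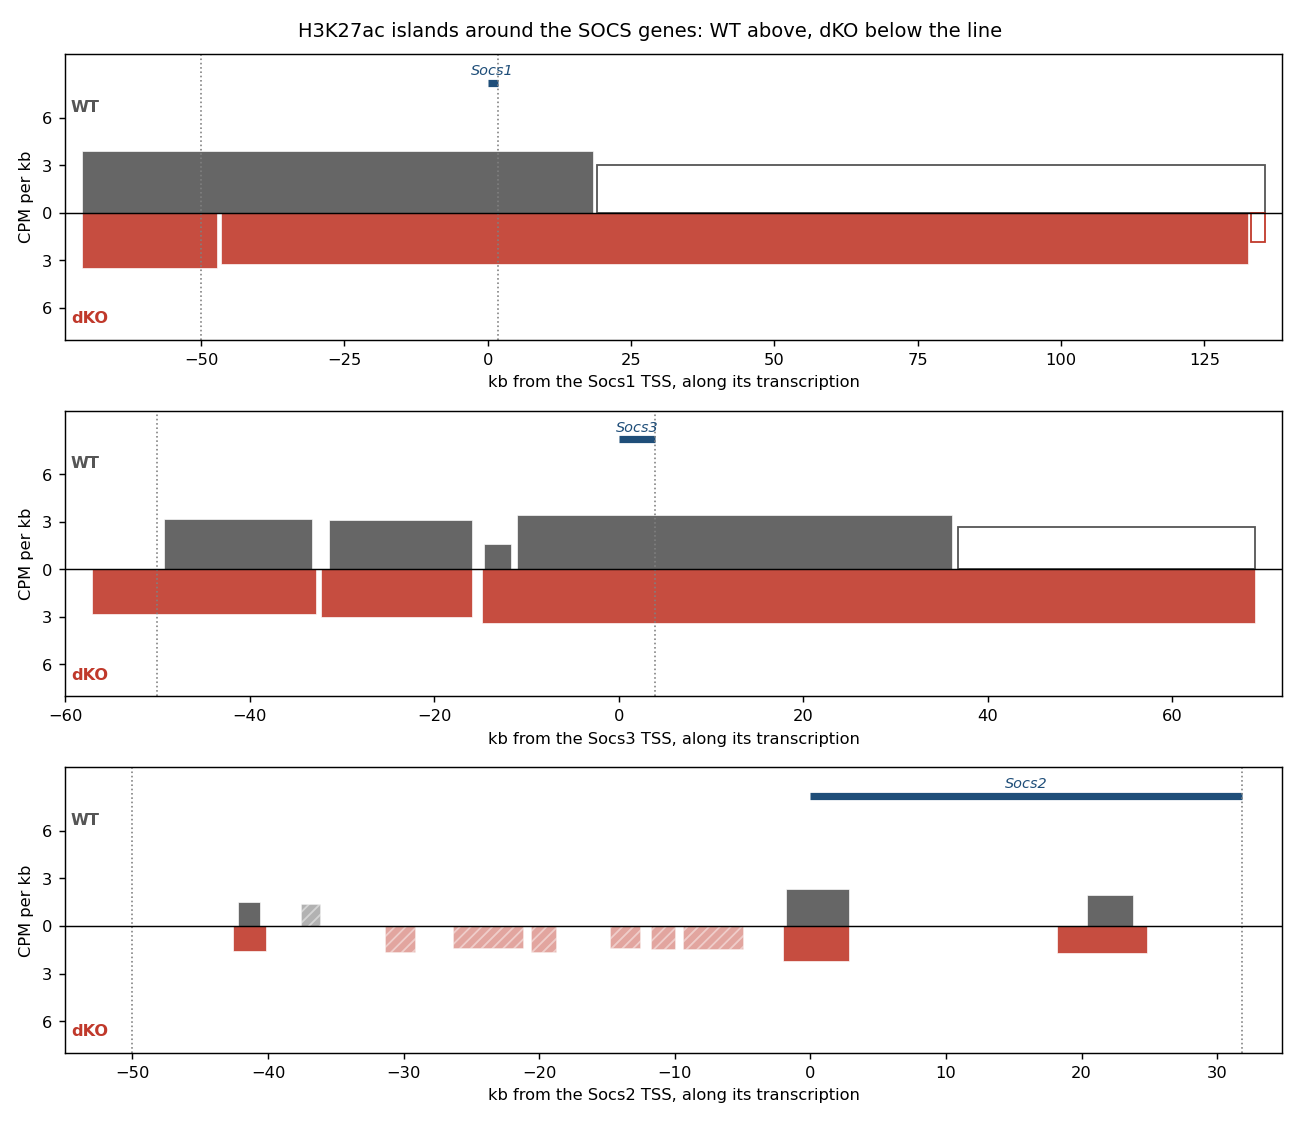
Islands in the windows of Socs1, Socs3 and Socs2, drawn as kb from the TSS against depth in CPM per kb, WT above and dKO below the line. Open boxes are islands outside the window, among them the WT islands that the long dKO islands of Socs1 and Socs3 take in, and hatched islands are in 1 list alone, among them the 6 weak dKO islands upstream of Socs2.

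The rest of the pathway was read from 5 lists of 51 genes. By counts per kb, 0 of 51 were higher and 3 were lower by 1.5 times (all genes 0.425% and 9.28%), namely Socs6 (log2 ratio −1.07), Socs4 (−0.93) and Il6st, the signal-transducing chain of IL-6 family receptors (−0.89). The median was −0.12 (all genes −0.16), and 32 of 51 were wider in dKO, against 65.1% of all genes. By whole-island counts 8 were higher and 5 lower (all genes 11.5% each way), and clipped to the window 1 was higher and 3 lower (all genes 8.27% and 9.71%). No share of the 51 genes is read as particular to the pathway. Il6st went from 43510 counts in 84.2 kb (517 counts per kb) to 19418 counts in 99.6 kb (195 counts per kb). Socs4 had 3587 counts in 9.4 kb in WT and 2594 in 18.6 kb in dKO, and Socs6 3039 in 6.8 kb and 2113 in 14.2 kb, so that width made up nearly all of both ratios.

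Among the other 5 STAT and JAK genes, log2 ratios of counts per kb ran from −0.41 for Stat2, which acts in type I interferon signaling, to −0.06 for Stat6, the IL-4 STAT, and 0 were called by this measure. By whole-island counts 1 of the 5 was called higher (all genes 11.5%), and clipped to the window 0 (all genes 8.27%). Among the 5 other SOCS family genes, Cish, a STAT5 target that inhibits T cell receptor signaling, was the highest, at −0.04. Its counts went from 8598 in 32.2 kb to 15661 in 86.4 kb, with a log2 ratio of width of 1.42. Of 10 other negative regulators, Pias1 was the highest by counts per kb (0.20) and Pias2 the lowest (−0.34). By whole-island counts 1 of these 10 was called higher and 1 lower (all genes 11.5% each way). Clipped to the window it was also 1 and 1 (all genes 8.27% and 9.71%). The lower one was Pias1, with 9760 counts in 64.0 kb in WT and 3143 in 25.8 kb in dKO (log2 ratio −1.12, or −0.96 clipped). Of 19 cytokine receptor genes, Il10ra was the highest, at 0.31, and Il6st the lowest. Of 12 STAT target genes, Tbx21, the gene of T-bet, was the highest (0.31), and Pim2, a kinase gene on chromosome X, the lowest (−0.41, chromosome X median −0.14). By counts per kb, all of these but the 3 named first were within a ratio of 1.5.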

How the data were processed

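H3K27ac ChIP-seq of 7 samples in 2 genotypes was used, and the 2 inputs were not analysed here. The authors aligned reads to mm9 with Bowtie2 2.2.5, kept reads of mapping quality above 10, pooled the replicates of each genotype and called islands with SICER 1.1, in windows of 200 bp joined over gaps of 400 bp at an FDR under 0.01. The deposited values are whole-number read counts per island, with no scaling for depth or width, and stretches without an island have no value. The handling of duplicate reads is not given in the sources used here. Nothing says that replicates came from separate mice, and whether repeated copies of a fragment were counted separately is not known.

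Islands touching a window (GENCODE vM1 gene body to 50 kb upstream of the 5'-most TSS, mm9, positions from 1) were summed whole, with covered width. Log2 ratios used counts divided by the list total, and a ratio of at least 1.5 was called. Width was taken as fixed in intervals of counts per kb. Promoters are from RefSeq (GRCm38.p6), placed on mm9 by a unique exact match, and printed outside exons of protein-coding transcripts. Motifs were searched on both strands. Python 3.11.15, numpy 2.4.6, pandas 2.3.3 and scipy 1.17.1 were used, and the sums were tested on simulated data.

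The genes, lists and comparisons were chosen with earlier results of these data known. Named are the 9 genes, in each list the genes past 1.5 by counts per kb and the highest and lowest, protein-coding genes starting in a window, and per gene the TSS island, the island with most counts and islands in 1 list alone, apart from items that are not reported here. Merged regions, pairs with near-equal borders and TSS pairs were added after seeing the data.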

Additional observations from a re-analysis of the deposited data

How the results depend on the processing

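No paired analysis was possible because each genotype has 1 pooled list, and for the same reason no replicate could be left out. Percentages in brackets are the shares of all genes called the same way. The number of the 9 genes called higher by counts was 4 as reported (11.5%). It was 3 over the gene body (14.9%), 3 at 100 kb upstream (8.44%) and 3 with islands in both lists only (6.52%), each without Socs2. It was 2 with clipped islands (8.27%), 2 over merged regions (7.00%) and 1 at a threshold of 2 (4.82%). With islands given to the nearest TSS, 7 genes had a value (not Jak3 and Socs1). Of these 7, 2 were called higher, Socs2 and Socs3 (15%). The nearest-TSS values of the 9 genes below are over these 7. The number called lower by counts, 0 as reported (11.5%), was 1 with nearest-TSS islands (15.8%) and 2 at a threshold below 1.5 (24.2%). By counts per kb, 0 were called lower as reported (9.28%). The number was 1 with windows of 10 kb upstream (12.9%), the gene body alone (15.1%), 100 kb upstream (6.92%) or nearest-TSS islands (12.6%). At the threshold below 1.5 it was 2 (27.4%). The median log2 ratio of counts, 0.20 as reported, was 0.27 scaled to shared regions, 0.27 centred on them, 0.16 at 10 kb, 0.063 over the body, 0.27 at 100 kb, −0.16 for nearest-TSS islands, −0.19 clipped, 0.14 with islands in both lists only and −0.076 over merged regions. That of counts per kb, −0.26 as reported, was −0.19 scaled to shared regions, −0.17 at 100 kb, 0.028 for pairs with near-equal borders and −0.16 for TSS pairs. That of width, 0.47 as reported, was 0.40 over the body, 0.39 at 100 kb, 0.084 for nearest-TSS islands, 0.078 clipped, 0.46 without islands under 200 counts, 0.49 without those under 3 CPM and 0.39 with islands in both lists only. Of the 51 pathway genes, 3 were lower by counts per kb as reported (9.28%), 6 at 10 kb (12.9%) and 6 of 50 over the body (15.1%). With islands in both lists only 1 was lower (5.66%), with 1 at a threshold of 2 (1.86%) and 8 at the one below 1.5 (27.4%). With nearest-TSS islands, 1 of the 45 with a value was higher (1.65%). The Socs1 log2 ratio of counts reversed, to −0.29 clipped and −0.076 over merged regions. The cause of these shifts was not tested. Over the alternatives, 95 of 97 count ratios of single genes and 83 of 88 ratios of counts per kb kept their sign. The alternatives share most islands and several left values unchanged, so these tallies are not independent checks. Stretches without a called island have no count, which limits values for weak islands.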
